A study of Mus musculus with 77 samples.

Results

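Srebf1, Mlxipl, Thrsp, Nr1h3 and Insig2 were followed as a group of regulators of lipogenesis, the making of fatty acids and triglycerides from dietary carbon. They were found as the rows of every count file whose Ensembl identifier carries one of these symbols, which gave 5 genes (ENSMUSG00000020538, ENSMUSG00000005373, ENSMUSG00000035686, ENSMUSG00000002108 and ENSMUSG00000003721, in the order of the symbols) of the 56181 features listed over all files. Srebf1 encodes SREBP-1a and SREBP-1c, transcription factors that are made as membrane proteins and released by cleavage to switch on genes of fatty acid synthesis. Insig2 encodes a protein of the endoplasmic reticulum that holds SCAP and uncleaved SREBP in place, and its liver-specific transcript is lowered by insulin. Mlxipl encodes ChREBP, the factor that answers to sugar metabolites, Nr1h3 encodes the oxysterol receptor LXR alpha, a known activator of Srebf1, and Thrsp encodes Spot 14, a small protein tied to fatty acid synthesis in lipogenic tissues and induced by carbohydrate and thyroid hormone.

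The RNA came from male mice, 12 weeks old, after 2 weeks on high-fat food (HFD) or on the low-fat control food (LFD). Animals of both diets carry the same alleles: FVB.129P2-Cyp3a13tm1Ahs, a targeted Cyp3a13 gene, then Del(5Cyp3a57-Cyp3a59)1Ahs, a deletion that spans these Cyp3a genes, and Tg(APOE-CYP3A4)A1Ahs, a transgene of human CYP3A4 driven by APOE sequences. The 77 libraries fell into 28 groups, 21 of 3 and 7 of 2: iTag pull-down and input libraries of mRNA from liver and kidney and of small RNA from liver, plasma, VsWAT and GAS, and input libraries of VsWAT and GAS total RNA, each on HFD and on LFD. VsWAT and GAS are the labels' names, and the labels do not say what was labelled in the RNA, in which cells, or whether each replicate was a separate animal, so the p-values below measure the spread between these libraries.

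Assigned counts per library ranged from 3033702 in liver mRNA input LFD to 4942158 in liver mRNA input HFD among the liver mRNA inputs, and from 221875 in plasma to 19645443 in kidney mRNA over all libraries. Levels are CPM, counts scaled to library size, after TMM scaling within each tissue and RNA type, differences are log2 values ± SE, and adjusted p means edgeR's quasi-likelihood test with Benjamini-Hochberg adjustment over all genes tested, with a threshold of 0.05. In every liver library 8 of 8 hepatocyte markers were above 0, and in every kidney library 7 of 7 kidney tubule markers. So were 7 of 7 adipocyte markers in every VsWAT library and 7 of 7 skeletal muscle markers in every GAS library. Presence alone does not tell tissues apart, since 7 of 7 adipocyte markers were also above 0 in every kidney library. The summed hepatocyte markers were at least 25843 CPM in liver libraries, and at most 54.3 CPM in kidney and 2322.5 CPM in VsWAT. Some libraries stood apart. In liver mRNA input, HFD 1 and HFD 3 differed little beyond counting noise (chi-square per degree of freedom 1.174), as did LFD 2 and LFD 3 (1.12), while LFD 1 carried 158 CPM of the kidney transcript Kap, against 7.87 and 8.29 CPM in LFD 2 and LFD 3. In kidney mRNA input, mitochondrial genes took 18.0% of counts in HFD 1 and 19.1% in LFD 1, against 12.7% to 13.5% in the other 3 libraries. In VsWAT small RNA input, the liver transcript Alb was at 642, 894 and 1063 CPM in HFD 1, HFD 2 and LFD 1. It was at 108, 143 and 262 CPM in HFD 3, LFD 2 and LFD 3.

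The counts are per gene, so transcripts of a gene that begin at different starts were not told apart. The RefSeq starts used here (GRCm38.p6, the same coordinates as mm10) were 3 of Srebf1 within chr11:60199084-60224186 and 2 of Mlxipl within chr5:135089890-135139768. The others were 1 of Thrsp within chr7:97412933-97417550, 2 of Nr1h3 within chr2:91184061-91202829 and 3 of Insig2 within chr1:121304353-121332662. The minus-strand loci of Srebf1, Nr1h3 and Insig2 end beyond the outermost start used, so other starts may be missing. Upstream, middle and downstream name places among the starts used. The 150 bases before a start were searched on both strands for CACGTG (an E-box), TCACNCCAC (a sterol response element), CCAAT (the box bound by NF-Y, a partner of SREBP) and the LXR element DR4 (AGGTCA repeated after 4 bases). No motif searched overlaps another in the 6 windows shown. These are the windows of Thrsp and of each Srebf1 start used, for their lower levels on HFD. For Insig2, the member that was higher on HFD in liver mRNA pull-down, the upstream window is shown, and for Mlxipl the window with the E-box. Capitals mark the matches, and the last base printed is next to the transcript's first base.
Srebf1 upstream start, chr11:60222582-60222731 (minus strand): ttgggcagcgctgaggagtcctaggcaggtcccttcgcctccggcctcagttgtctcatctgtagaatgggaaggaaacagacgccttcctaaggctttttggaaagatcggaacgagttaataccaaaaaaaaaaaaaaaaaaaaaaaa
Srebf1 middle start, chr11:60220628-60220777 (minus strand): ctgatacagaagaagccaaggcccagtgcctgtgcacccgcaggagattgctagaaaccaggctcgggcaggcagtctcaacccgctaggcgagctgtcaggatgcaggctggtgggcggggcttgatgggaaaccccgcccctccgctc
Srebf1 downstream start, chr11:60210472-60210621 (minus strand): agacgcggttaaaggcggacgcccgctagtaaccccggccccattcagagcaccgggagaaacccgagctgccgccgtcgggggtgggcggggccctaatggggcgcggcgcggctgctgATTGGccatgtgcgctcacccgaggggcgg
Thrsp, chr7:97417551-97417700 (minus strand): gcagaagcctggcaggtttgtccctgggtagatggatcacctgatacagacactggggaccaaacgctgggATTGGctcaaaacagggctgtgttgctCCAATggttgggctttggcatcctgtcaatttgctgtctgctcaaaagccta
Mlxipl upstream start, chr5:135089740-135089889 (plus strand): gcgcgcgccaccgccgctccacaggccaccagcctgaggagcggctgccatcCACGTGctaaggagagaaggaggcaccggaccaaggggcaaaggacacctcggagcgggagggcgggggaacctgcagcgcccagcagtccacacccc
Insig2 upstream start, chr1:121332590-121332739 (minus strand): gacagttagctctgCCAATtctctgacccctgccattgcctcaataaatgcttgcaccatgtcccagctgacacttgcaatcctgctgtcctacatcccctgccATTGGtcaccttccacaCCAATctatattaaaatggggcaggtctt
Among 32851 mouse promoter windows of this length, 4.3% held CACGTG, 0.639% TCACNCCAC, 24.5% CCAAT and 0.0152% DR4. Thrsp held CCAAT 79 and 52 bases before its start, the downstream Srebf1 start held it 30 bases before, and the upstream Insig2 start 136, 46 and 29 bases before. The other Insig2 starts, whose windows are not shown, held none of the motifs. CACGTG was found 98 bases before the upstream Mlxipl start and TCACNCCAC 136 bases before the other Mlxipl start, and DR4 was found before none of the 11 starts used. These matches describe letters in a window and were not tied to any measurement.

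In liver mRNA input, the question being what the diet did to steady-state RNA, Srebf1 fell most of the 5. Srebf1 had 52.3, 44.6 and 53.6 CPM in HFD livers, against 244, 359 and 351 CPM in LFD livers. Every HFD library was below every LFD library, and the lowest LFD value was that of LFD 1. The log2 difference was -2.65 ± 0.21 (adjusted p = 0.00221). A lower level in whole tissue cannot tell fewer cells of a type from less RNA per cell, and the summed hepatocyte markers were also lower, at 55067 to 62692 CPM in HFD and 82959 to 89223 CPM in LFD, with 2 of 8 markers passing. The summed endothelial markers were at 85.1 to 90.9 CPM in HFD and 110.1 to 147 CPM in LFD, with 1 of 5 tested passing, and the leukocyte markers at 119 to 127 CPM in HFD and 129 to 164 CPM in LFD, with 1 of 6 passing. Mitochondrial genes took 10.4% to 10.9% of counts in HFD and 7.77% to 8.19% in LFD, and the part of these measures in the result was not tested.

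Nr1h3 also fell in liver mRNA input. It had 46.8, 56.2 and 56.5 CPM in HFD livers, against 99.6, 97.5 and 85.6 CPM in LFD livers, so the groups did not overlap. The log2 difference was -0.81 ± 0.14 (adjusted p = 0.0197), and it missed the threshold when any library other than LFD 1 was left out (adjusted p = 0.0665 to 0.115). With Srebf1, 2 of the 5 genes passed, both lower, where 13% of the genes tested passed, 4.96% higher and 8.09% lower.

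The other members of the group did not pass in liver mRNA input, and their LFD 1 value lay far from the other LFD values. Mlxipl had 159, 159 and 160.3 CPM in HFD livers, against 179.95, 333 and 329 CPM in LFD livers, with a log2 difference of -0.81 ± 0.25 (adjusted p = 0.0817). Thrsp had 1885, 2068 and 1999.7 CPM in HFD livers, against 4320.1, 2253 and 2262 CPM in LFD livers, with a log2 difference of -0.54 ± 0.25 (adjusted p = 0.191). Insig2 had 221, 239 and 215 CPM in HFD livers, against 198, 120.01 and 122 CPM in LFD livers, with a log2 difference of 0.64 ± 0.20 (adjusted p = 0.079). For these genes too the HFD and LFD values did not overlap after TMM scaling. In CPM of all assigned counts Mlxipl did overlap, at 143.4 to 146.5 CPM in HFD and 141.7 to 332 CPM in LFD. The share of all genes without overlap was not counted, here or in the sets below. Without LFD 1, which leaves the closely agreeing LFD 2 and LFD 3 as the controls, all 5 genes passed, with Mlxipl at -1.05 (adjusted p = 1.29e-09), Insig2 at 0.89 (adjusted p = 6.36e-08) and Thrsp at -0.19 (adjusted p = 0.00708). Over the runs with 1 library left out, 48 to 5582 of all genes passed, against 1328 with every library kept. The share of all genes in the run without LFD 1 is not given here, so its count of members is not read as particular to them. With each closely agreeing pair summed to 1 library, none of the 5 and 0 genes in all passed, and Srebf1 was at -2.59 (adjusted p = 0.247).

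**Figure D1:**
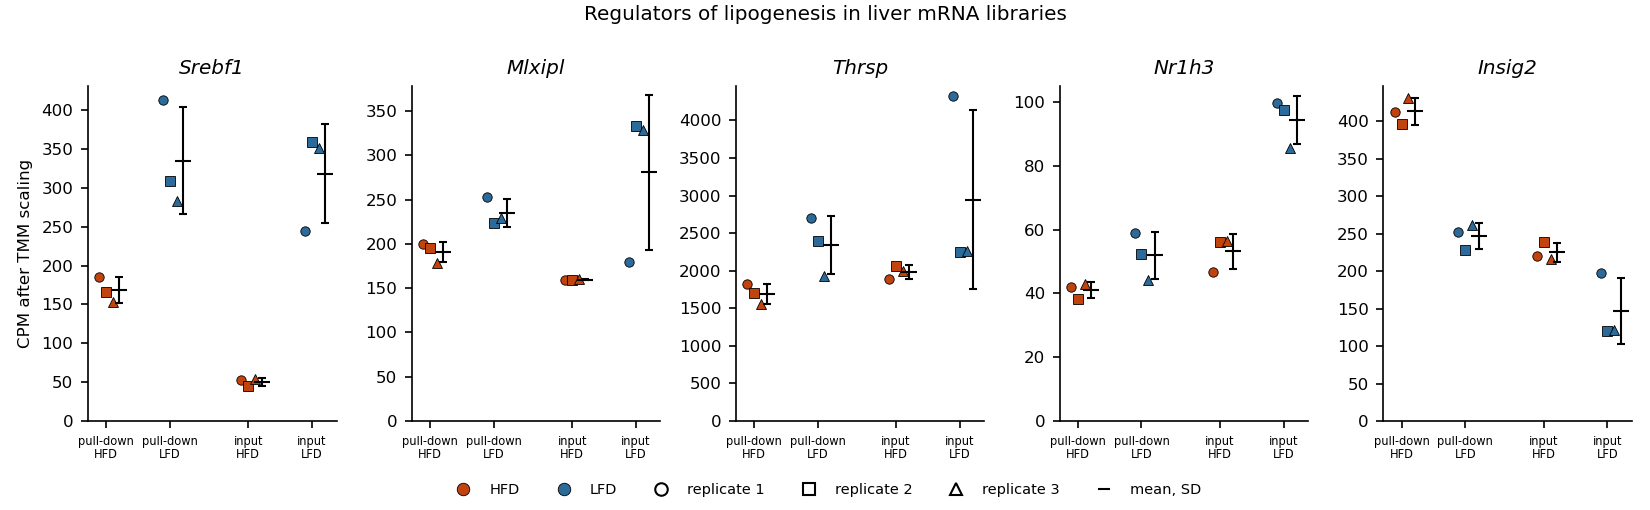
CPM after TMM scaling of the 5 genes in the 12 liver mRNA libraries (linear axis from 0, a panel per gene); points are libraries, marked by replicate number and coloured by diet, and bars are the mean and SD of 3. Srebf1 is low in the 3 HFD input libraries, at 44.6 to 53.6 CPM, and LFD input replicate 1 stands apart for Mlxipl, Thrsp and Insig2.

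In liver mRNA pull-down, which holds the RNA recovered through the label, 4 of the 5 genes passed, 3 lower and 1 higher, where 15.6% of the genes tested passed, 7.55% higher and 8.03% lower. Srebf1 had 186, 166 and 153 CPM in HFD, against 412, 308 and 282 CPM in LFD, again with no overlap. Its log2 difference was -0.98 ± 0.13 (adjusted p = 4.88e-05). Insig2, the member that holds SREBP back, rose: it had 413, 395 and 430.4 CPM in HFD, against 252, 228 and 261 CPM in LFD. The log2 difference of Insig2 was 0.75 ± 0.09 (adjusted p = 3.65e-07), and every HFD value exceeded every LFD value. The summed hepatocyte markers were at 57702 to 63284 CPM in HFD pull-down and 64872 to 79252 CPM in LFD pull-down, with 4 of 8 lower and 1 higher, and the endothelial markers at 25.0 to 29.8 CPM in HFD and 30.9 to 36.1 CPM in LFD, with 0 of 4 tested passing; their part in these results was not tested.

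Thrsp had 1821, 1699 and 1559.6 CPM in HFD pull-down, against 2702, 2396 and 1932 CPM in LFD pull-down, a log2 difference of -0.46 ± 0.11 (adjusted p = 0.0048). Mlxipl had 199, 195 and 178 CPM in HFD pull-down, against 253, 224 and 229 CPM in LFD pull-down, a log2 difference of -0.29 ± 0.09 (adjusted p = 0.0321). The libraries of the diets did not overlap for either gene after TMM scaling. In CPM of all assigned counts they did overlap. Thrsp was then at 1754 to 2139 CPM in HFD and 1986 to 2907 CPM in LFD, and Mlxipl at 199.99 to 234 and 228 to 272 CPM. The Thrsp call ended with total-count scaling (adjusted p = 0.0529) and with the spread taken from all 4 groups (adjusted p = 0.268). That of Mlxipl ended with both (adjusted p = 0.276 and 0.422) and without HFD 1, HFD 2, HFD 3 or LFD 1. Nr1h3 had 41.9, 38.1 and 43.1 CPM in HFD pull-down, against 59.0, 52.5 and 44.2 CPM in LFD pull-down, and its log2 difference of -0.33 ± 0.14 did not pass (adjusted p = 0.127).

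The diet effect on Srebf1 was smaller in pull-down than in input when the difference itself was tested. The interaction was 1.68 ± 0.24 on the log2 scale (adjusted p = 0.00906), which made Srebf1 the 1 of 5 genes to pass where 3.36% of genes passed. The level of Srebf1 in pull-down was above that in input on HFD, at 153 to 186 against 44.6 to 53.6 CPM, while on LFD the ranges overlapped, at 282 to 412 against 244 to 359 CPM. With the closely agreeing input pairs summed, the interaction was 1.58 and its adjusted p 0.0972. With the replicate number as a block it was 1.68 (adjusted p = 0.116). Same-numbered pull-down and input libraries did not pair, with deviations correlated at -0.29 to 0.257 on LFD. For the other genes the interaction did not pass, with Mlxipl at 0.52 ± 0.26 (adjusted p = 0.273), Nr1h3 at 0.49 ± 0.20 (adjusted p = 0.195), Insig2 at 0.12 ± 0.23 (adjusted p = 0.82) and Thrsp at 0.10 ± 0.31 (adjusted p = 0.895). Without LFD 1 of the input, Mlxipl passed at 0.70 (adjusted p = 9.31e-05). Over the runs with 1 library left out, 14 to 3054 of all genes passed for this interaction, against 365 with every library kept.

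The genes that these regulators act on were counted in the same liver fits, where 8.09% of all genes fell in input and 8.03% in pull-down. Of 17 lipogenic target genes without the 5 members, 16 were measured in input and 11 fell, with a list median of -1.62 beside -0.04 for all genes. In pull-down 15 were measured and 13 fell, with a list median of -1.74. Scd1, the desaturase that makes oleate, averaged 215 ± 12.4 CPM in HFD input and 13521 ± 2340 CPM in LFD input (SD, n = 3 each), a log2 difference of -5.96 ± 0.21 (adjusted p = 0.000174). In input Acaca, which makes malonyl-CoA, fell by 2.48, Elovl6, an elongase, by 1.97 and Acss2, which activates acetate, by 2.01 on the log2 scale. In pull-down Scd1 fell by 6.07, Elovl6 by 2.20, Elovl5 by 1.74 and Acly, the source of cytosolic acetyl-CoA, by 1.81.

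Some of the genes tied to ChREBP and LXR fell, where 8.09% of all genes fell in input and 8.03% in pull-down. Of 8 listed ChREBP target genes 7 were measured in input and 3 fell, Tkfc, Khk and G6pc, at -1.495, -1.90 and -1.15 on the log2 scale. In pull-down 8 were measured and 4 fell, with Khk, the ketohexokinase of fructose metabolism, at -1.48 ± 0.10 and Pklr, the liver pyruvate kinase, at -1.68 ± 0.17. Of 9 listed LXR target genes 3 fell in input, Lpcat3 by 1.38, Abcg5 by 1.01 and Abcg8 by 1.00. In pull-down 5 of the 9 were measured and 5 fell, among them Cyp7a1, the rate-limiting enzyme of bile acid synthesis, by 0.86, and the cholesterol exporters Abcg5, Abca1 and Abcg8 by 0.89, 0.68 and 0.39. Of the 9 partners and cofactors of LXR 3 fell in input, Rxrb at -1.13 ± 0.21, Nr1h2 at -0.78 ± 0.15 and Rxrg at -1.47 ± 0.35, and in pull-down 0 of 8 measured passed, Ncor1 being nearest at -0.25 ± 0.10 (adjusted p = 0.103). Of 5 other members of the ChREBP and Mlx network 0 passed in either fraction, with Mlxip at -1.63 ± 0.51 in input (adjusted p = 0.079) and Mxd1 at 0.68 ± 0.24 in pull-down (adjusted p = 0.0542).

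Of 8 genes of the machinery that cleaves SREBP, besides the members, 1 passed in input, where 13% of all genes did, and 2 in pull-down, where 15.6% did. In input it was Scap, the sterol-sensing escort of SREBP, lower at -1.13 ± 0.15 (adjusted p = 0.00971). In pull-down Insig1 fell by 0.34 (adjusted p = 0.00747) and Srebf2, the cholesterol-regulating SREBP, was higher by 0.49 ± 0.13 (adjusted p = 0.0102). The cholesterol genes under SREBP-2 went both ways: of 12 measured, 2 rose and 4 fell in input, and 1 rose and 6 fell in pull-down. Sqle, squalene epoxidase, was higher in both, by 0.87 ± 0.14 and 1.08 ± 0.18, and Cyp51 was higher in input by 0.94 ± 0.12, while Dhcr7, of the last step of cholesterol synthesis, fell by 0.92 in input and by 0.65 in pull-down.

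Other regulators and lists were counted in the same fits, where 13% of all genes passed in input and 15.6% in pull-down. Of 14 measured further regulators of lipogenesis 2 fell in input, Nr0b2 by 1.503 and Ppargc1b, a coactivator of SREBP-1, by 0.84. In pull-down 3 fell and 1 rose, with Mid1ip1, the paralog of Thrsp, down by 0.64, Cebpa by 0.48 and Nr0b2 by 0.91, and Nr1i3 higher by 0.72 ± 0.20. Of the fasting-induced liver genes 5 of 9 fell in input, among them Igfbp1 by 1.52, Angptl4 by 0.94, Ppargc1a by 1.27 and Lpin1 by 1.12, and 3 of 10 fell in pull-down while 1, Irs2, rose by 0.86 ± 0.19. Of the circadian clock genes 2 rose and 2 fell of 14 in input, with Clock at 1.06 ± 0.21, Cry1 at 0.87 ± 0.16, Ciart at -1.39 ± 0.20 and Per1 at -1.57 ± 0.28, and 2 rose and 3 fell of 15 in pull-down. With the closely agreeing pairs summed, none of these input calls held, since 0 genes passed.

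The liver small RNA libraries hold fragments of the same genes at lower counts, and none of the 5 passed for diet, where 0.111% of genes passed in input and 0.0545% in pull-down. In pull-down Srebf1 had 27.3, 37.4 and 16.4 CPM in HFD, against 90.2 and 80.4 CPM in LFD, and Mlxipl had 19.3, 25.7 and 8.83 CPM in HFD, against 47.2 and 46.1 CPM in LFD. The groups did not overlap for either gene, but the share of all genes without overlap was not counted. The log2 differences were -1.59 ± 0.29 for Srebf1 (adjusted p = 0.0756) and -1.27 ± 0.31 for Mlxipl (adjusted p = 0.217). Srebf1 passed with DESeq2 (adjusted p = 0.00207), and both genes passed with total-count scaling, a choice that shifts the all-gene median by -0.16. In input, Thrsp was at -1.01 ± 0.33 (adjusted p = 0.317), and Srebf1 rested on 6 counts in HFD 3.

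In kidney mRNA, none of the 5 passed for diet in input or in pull-down, and 0% of all genes did with edgeR after the filter on low counts. At an unadjusted p under 0.05 there were 1956 genes in input and 631 in pull-down. DESeq2 called 144 and 0, and edgeR with no filter on low counts called 1536 and 10. Srebf1 had 13.0, 16.4 and 17.3 CPM in HFD kidney input, against 6.11 and 14.02 CPM in LFD kidney input, with a log2 difference of 0.59 ± 0.37 (adjusted p = 0.466). Its LFD 1 value, the lowest, came from a library with 19.1% mitochondrial counts. Nr1h3 had 23.6, 43.4 and 41.1 CPM in HFD and 16.9 and 27.1 CPM in LFD, a log2 difference of 0.69 ± 0.35 (adjusted p = 0.409). Without the 2 inputs of high mitochondrial share Nr1h3 passed at 0.61 (adjusted p = 0.000264), with 1 LFD library left, which was assumed to vary like the others, and in that run 6722 genes passed. Mlxipl, Thrsp and Insig2 were at 0.17 ± 0.30, 0.04 ± 0.37 and 0.04 ± 0.27 on the log2 scale in kidney input. In pull-down the 5 values ran from -0.43 ± 0.48 for Thrsp to -0.00 ± 0.18 for Mlxipl. The interaction of diet and pull-down passed for none of them, with 0% of genes called. DESeq2 called 104 genes for this interaction, and edgeR with no filter 480.

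The diet effect on Srebf1 differed between liver and kidney. The difference of the mRNA input effects, liver minus kidney, was -3.25 ± 0.43 on the log2 scale (adjusted p = 0.00921), and 0.941% of genes passed this test. That of Nr1h3 was -1.4995 ± 0.38 (adjusted p = 0.0729), and those of Mlxipl, Thrsp and Insig2 were -0.97 ± 0.41, -0.59 ± 0.47 and 0.61 ± 0.35. With the closely agreeing liver pairs summed, Srebf1 was at -3.18 (adjusted p = 0.16). Without the kidney inputs of high mitochondrial share, which left 1 LFD kidney input, Nr1h3 was at -1.44.

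In VsWAT, Thrsp fell with HFD in every kind of library. In total RNA it had 82.1, 59.3 and 85.6 CPM in HFD, against 427, 706 and 842 CPM in LFD. The lowest LFD value was several times the highest HFD value, and the log2 difference was -3.13 ± 0.27 (adjusted p = 0.00893), where 0.194% of genes passed. In small RNA input Thrsp had 83.6, 79.8 and 88.2 CPM in HFD, against 458, 715 and 874 CPM in LFD, a difference of -3.01 ± 0.25 (adjusted p = 7.38e-05). It had the smallest p of the 7987 genes tested there, of which 0.213% passed. In small RNA pull-down it had 196, 159 and 219 CPM in HFD, against 689, 779.9 and 1224 CPM in LFD, a difference of -2.22 ± 0.29 (adjusted p = 0.016), where 0.103% of genes passed.

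Thrsp was the 1 member that passed in each of these VsWAT sets. Of the 7 adipocyte markers 0 passed in each set, the nearest being Lipe in total RNA at -0.72 ± 0.21 (adjusted p = 0.217). Their sum was 8716 to 12583 CPM in HFD and 7244 to 10189.5 CPM in LFD total RNA, and 7562 to 8090.0 CPM in HFD and 6382 to 6946 CPM in LFD small RNA input, where it was higher in each HFD library. The Thrsp call ended without HFD 1 in total RNA (adjusted p = 0.0627) and without HFD 1 or HFD 2 in pull-down (adjusted p = 0.166 and 0.127), with the log2 difference between -3.19 and -2.10 in these runs. In small RNA input HFD 1 and HFD 2 agreed closely (chi-square per degree of freedom 1.439), and Thrsp still passed with them summed.

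Srebf1 and Mlxipl pointed the same way in VsWAT without passing. Srebf1 had 32.1, 21.6 and 9.22 CPM in HFD total RNA, against 54.4, 35.4 and 81.2 CPM in LFD total RNA, a difference of -1.39 ± 0.46 (adjusted p = 0.319). Mlxipl had 14.5, 16.0 and 7.01 CPM in HFD total RNA, against 24.1, 21.9 and 44.0 CPM in LFD total RNA, a difference of -1.20 ± 0.35 (adjusted p = 0.258). Neither pair of groups overlapped, but the share of all genes without overlap was not counted. DESeq2 passed both Srebf1 and Mlxipl (adjusted p = 0.0107 and 0.0263). The transcript Gm42418 took 7.51% of counts in HFD 3, the library lowest in both genes, 7.11% in LFD 1 and 3.63% in LFD 3. Nr1h3 and Insig2 were at -0.46 ± 0.24 and -0.16 ± 0.18. The value of Insig2 was -0.61 (adjusted p = 0.0042) without the libraries rich in Gm42418, which left LFD 2 as the 1 LFD library and passed 966 genes in place of 24, and it was 0.06 without LFD 2.

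Of the lipogenic target genes, 15 were measured in VsWAT total RNA and 1 fell, Acly by 3.87 (adjusted p = 0.0169), with a list median of -1.91 beside -0.01 for all genes. In VsWAT small RNA input 3 of 15 fell, Fasn, fatty acid synthase, at -3.16, Acly at -3.58 and Acaca at -3.05, and in pull-down 4 of 16 fell, Acly at -3.37, Acaca at -3.03, Me1, malic enzyme, at -2.18 and Fasn at -2.79. Among the circadian clock genes Nr1d1 and Dbp fell in total RNA, by 1.24 and 1.57. No gene of the lists on SREBP processing, ChREBP or LXR passed for diet in VsWAT, where Gpd1 came nearest, at -1.25 ± 0.25 in small RNA input (adjusted p = 0.0726).

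In GAS, Thrsp was again the member that changed. In total RNA it had 5.12, 2.696 and 2.08 CPM in HFD, against 31.7, 47.0 and 18.1 CPM in LFD, a difference of -3.29 ± 0.45 (adjusted p = 0.0248), where 0.91% of genes passed. In small RNA pull-down it had 9.90, 4.36 and 4.41 CPM in HFD, against 102, 77.1 and 71.3 CPM in LFD, a difference of -3.68 ± 0.32 (adjusted p = 7.86e-05). That was the smallest p of 9058 genes tested in the pull-down, of which 0.718% passed. In small RNA input it had 22, 0 and 4 counts in HFD, against 86, 50 and 65 counts in LFD, and the difference of -2.43 ± 0.58 did not pass (adjusted p = 0.277, where 0.276% of genes passed). It passed there with DESeq2 (adjusted p = 0.0433), with no filter on low counts (adjusted p = 5.7e-08) and without HFD 1 (-3.98, adjusted p = 0.00121). With other libraries left out the adjusted p reached 0.906.

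The adipocyte markers moved with Thrsp in GAS. Their sum was 170.04 to 217 CPM in HFD total RNA and 797 to 969.6 CPM in LFD total RNA, with 6 of 7 markers lower and a median of -1.83 on the log2 scale. In pull-down the sum was 288 to 356 CPM in HFD and 1392 to 1678 CPM in LFD, with 7 of 7 lower and a median of -2.14, and no adipocyte marker was at 0 in these libraries. The summed leukocyte markers were also lower, at 21.7 to 38.5 CPM in HFD and 47.7 to 365 CPM in LFD total RNA, and 32.3 to 57.9 CPM in HFD and 80.6 to 152 CPM in LFD pull-down. The erythroid markers were at 63.4 to 148 CPM in HFD and 248 to 325 CPM in LFD total RNA, and 61.5 to 75.2 CPM in HFD and 83.2 to 142 CPM in LFD pull-down. The skeletal muscle markers were at 28453 to 31925 CPM in HFD and 17575 to 25917 CPM in LFD pull-down. Of the leukocyte, erythroid and skeletal muscle markers 1 passed in total RNA, an erythroid one, and 0 in pull-down, and the part of these cell types in the Thrsp result was not tested. Pparg, itself one of these markers, was at -1.88 in total RNA and -3.07 in pull-down, and Cebpa at -2.04 and -2.58, with each of these passing. Of the lipogenic targets 5 of 14 fell and 1 rose in total RNA, with Acly down by 2.66, and 5 of 13 fell in pull-down, with Fasn down by 4.19. The call of Thrsp in total RNA ended without HFD 2, HFD 3 or LFD 1 (adjusted p = 0.276, 0.093 and 0.106) and stood at an adjusted p of 0.0505 with no filter on low counts.

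The other members did not pass for diet in GAS. Srebf1 had 7.89, 4.41 and 3.47 CPM in HFD total RNA, against 8.41, 8.88 and 5.597 CPM in LFD total RNA, a difference of -0.54 ± 0.35 (adjusted p = 0.435). These groups overlapped. Mlxipl, Insig2 and Nr1h3 were at 0.20 ± 0.21, -0.12 ± 0.21 and -0.01 ± 0.37 in total RNA, and Nr1h3, at 1 to 13 counts per library, was not tested in GAS small RNA. The difference of the diet effects between VsWAT and GAS total RNA passed for none of the 5, where 1.56% of genes passed: it was 0.11 ± 0.53 for Thrsp (adjusted p = 0.94) and -1.45 ± 0.44 for Mlxipl (adjusted p = 0.0933), and DESeq2 passed Mlxipl (adjusted p = 0.0383).

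**Figure D2:**
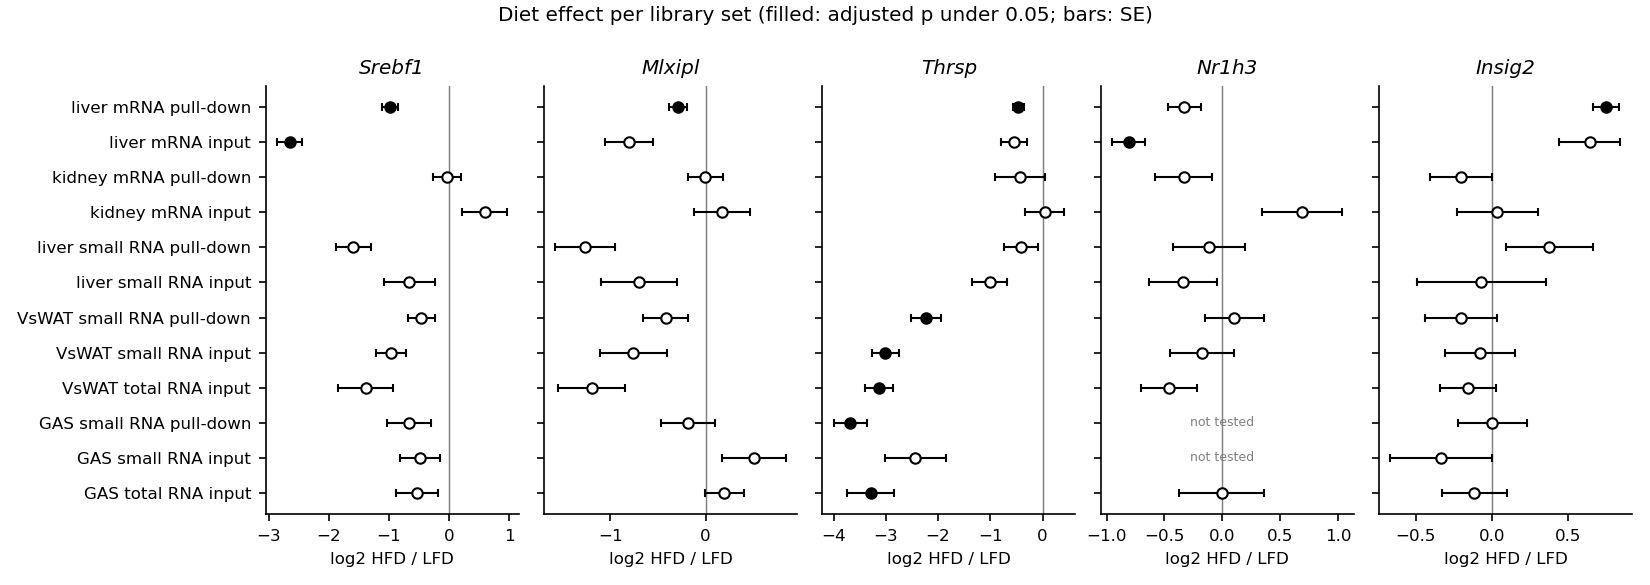
log2 difference of HFD and LFD for each gene (a panel each, with its own axis) in 12 library sets, with SE as bars and filled points where the adjusted p was under 0.05. Thrsp lies between -3.68 and -2.22 in the filled VsWAT and GAS sets, Srebf1 is lowest in liver mRNA input at -2.65, and Insig2 is filled only in liver mRNA pull-down at 0.75.

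**Figure D3:**
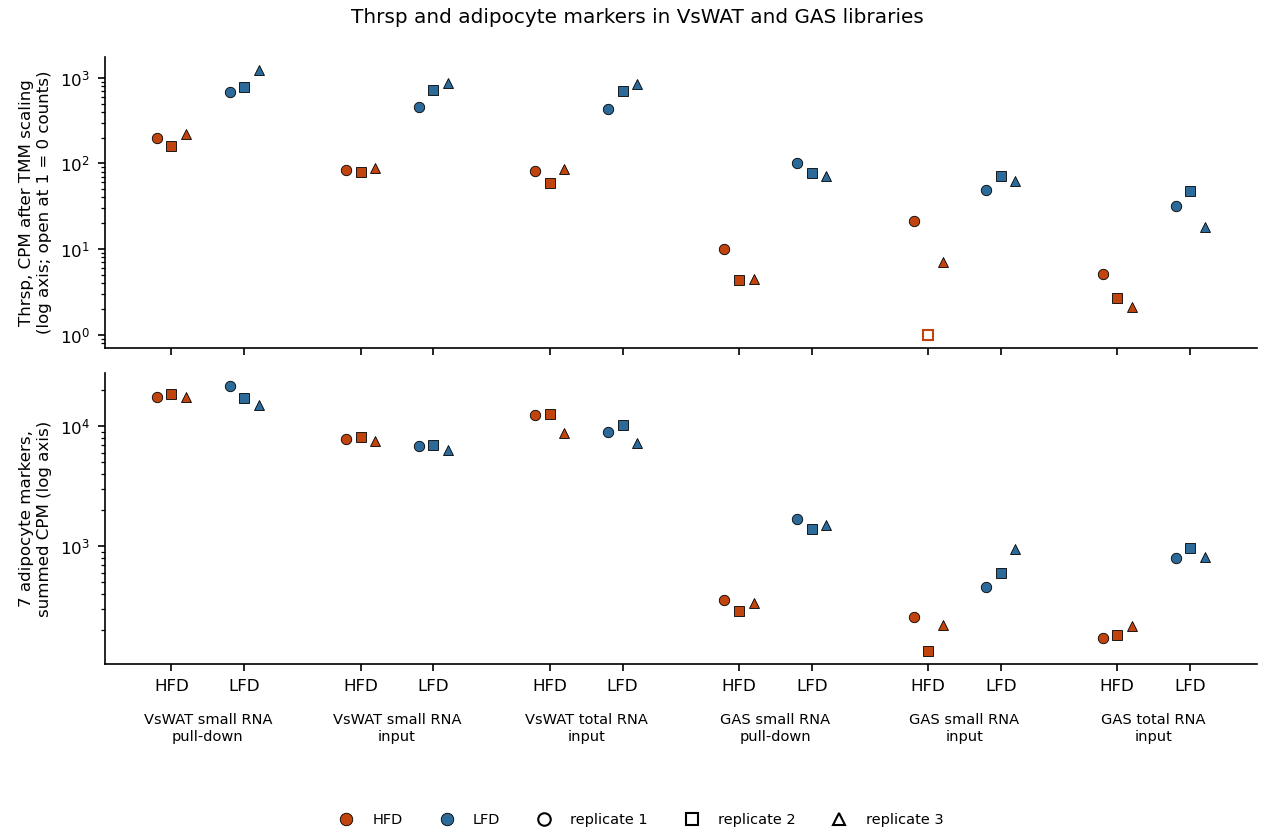
Thrsp in CPM after TMM scaling (above) and the summed CPM of 7 adipocyte markers (below), both on log axes, in each VsWAT and GAS library by diet and replicate number; the open square is a library with 0 Thrsp counts. The Thrsp values of the diets do not overlap in any of the 6 sets, while the adipocyte sums are lower on HFD in the 3 GAS sets, higher on HFD in VsWAT small RNA input, and overlap in VsWAT pull-down and total RNA.

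Pull-down against input, over both diets, asks which transcripts the label recovered. In liver mRNA 3 of the 5 passed, 2 higher and 1 lower, where 73.6% of all genes passed, 37.7% higher and 35.9% lower. Srebf1 was higher in pull-down by 0.91 ± 0.12 (adjusted p = 1.78e-05) and Insig2 by 0.82 ± 0.12 (adjusted p = 2.68e-05), while Nr1h3 fell by 0.62 (adjusted p = 0.0001). For Srebf1 the diets differed, with means of 168 CPM in HFD pull-down and 50.2 CPM in HFD input. On LFD they were 334 and 318 CPM, with overlapping ranges. Insig2 had 228 to 430.4 CPM in the 6 pull-down libraries and 120.01 to 239 CPM in the 6 input libraries, which overlap across diets but not within a diet. Thrsp was at -0.28 ± 0.15 (adjusted p = 0.117), and Mlxipl had 191 ± 11.5 CPM in HFD pull-down and 159.7 ± 0.57 CPM in HFD input, against 235 ± 15.5 and 281 ± 87.1 CPM on LFD (SD, n = 3 each). In the same libraries 6 of 6 leukocyte, 4 of 4 endothelial and 4 of 4 erythroid markers measured were lower in pull-down, as were 5 of 8 hepatocyte markers, and their part was not tested.

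In kidney mRNA 4 of the 5 passed, where 52.8% of genes did. Srebf1 had 19.8 to 26.3 CPM in pull-down and 6.11 to 17.3 CPM in input, a difference of 0.93 ± 0.23 (adjusted p = 0.00401). Mlxipl had 202 to 252 CPM in pull-down and 89.2 to 162 CPM in input, a difference of 0.80 ± 0.17 (adjusted p = 0.00198). Insig2 had 35.4 to 47.5 CPM in pull-down and 54.5 to 83.2 CPM in input, a difference of -0.77 ± 0.16 (adjusted p = 0.00166). None of these ranges overlap. Nr1h3, with overlapping ranges, fell by 0.58 (adjusted p = 0.0369), a call that ended without any of 8 of the 10 libraries (adjusted p = 0.0531 to 0.101) and with total-count scaling (adjusted p = 0.194). Of 7 kidney tubule markers 6 were lower in pull-down.

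Insig2 was thus higher in liver pull-down and lower in kidney pull-down, and the difference between the tissues passed. Liver minus kidney enrichment was 1.43 ± 0.20 for Insig2 (adjusted p = 4.4e-05), where 12.6% of genes passed. For Mlxipl it was -0.96 ± 0.23 (adjusted p = 0.00655), which ended without the kidney inputs of high mitochondrial share (-0.49, adjusted p = 0.142), with the closely agreeing liver pairs summed (-0.64, adjusted p = 0.103) and with total-count scaling (-0.78, adjusted p = 0.0629). With 1 library left out the Mlxipl difference lay between -1.20 and -0.54, with an adjusted p of up to 0.144. Insig2 passed in each of these runs. For Srebf1, Nr1h3 and Thrsp the difference was -0.17 ± 0.25, -0.20 ± 0.23 and 0.18 ± 0.33.

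Among the small RNA sets, VsWAT showed the members higher in pull-down, with 4 of 5 passing where 43.9% of genes did. Srebf1 had 132 to 254 CPM in pull-down and 27.7 to 106 CPM in input, a difference of 1.53 ± 0.18 (adjusted p = 4e-06). Mlxipl was at 1.40 ± 0.22, Insig2 at 1.05 ± 0.16 and Thrsp at 0.79 ± 0.19, and Nr1h3 at 0.31 ± 0.19 (adjusted p = 0.197). Thrsp missed the threshold at 0.68 without the inputs of over 300 CPM of Alb (adjusted p = 0.0834). Of 7 adipocyte markers 6 were higher in this pull-down and 1 lower, and 5 of 5 leukocyte, 4 of 4 endothelial and 4 of 4 erythroid markers measured were lower. In liver small RNA Insig2 was higher by 0.70 ± 0.28 (adjusted p = 0.0419) and Nr1h3 fell by 0.82 (adjusted p = 0.00369), where 55.2% of genes passed. With total-count scaling, under which the all-gene median shifts by 1.13, Nr1h3 was at 0.30 (adjusted p = 0.302). In GAS small RNA Insig2 was higher by 0.63 ± 0.20 (adjusted p = 0.0113), where 54.4% of genes passed.

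**Figure D4:**
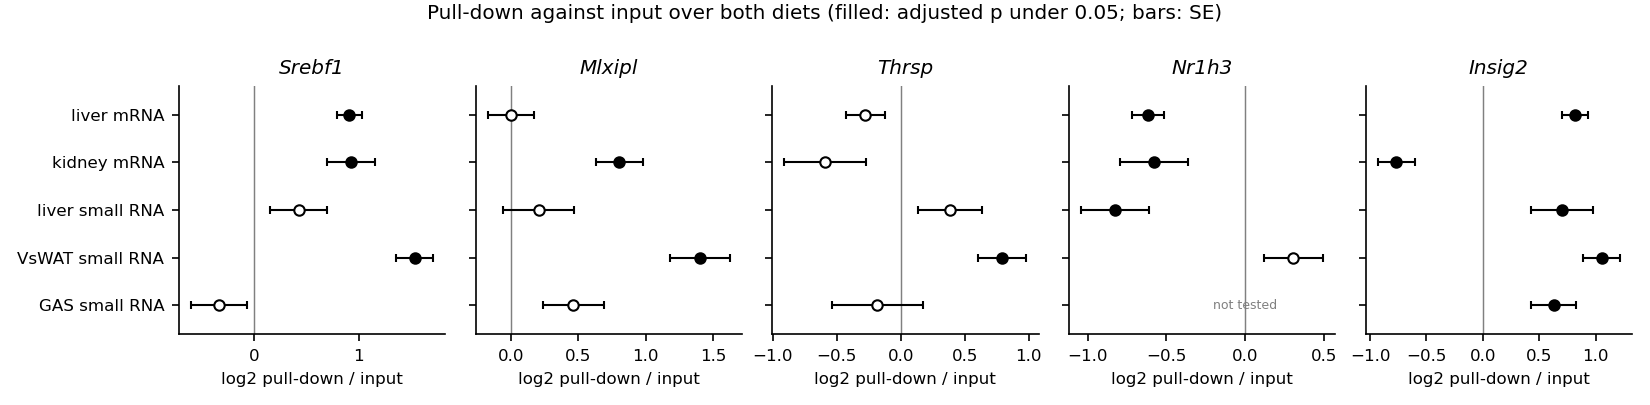
log2 difference of pull-down and input over both diets for each gene (a panel each, with its own axis) in 5 library sets, with SE as bars and filled points where the adjusted p was under 0.05. Insig2 is at 0.82 in liver mRNA and at -0.77 in kidney mRNA, and Srebf1 is highest in VsWAT small RNA at 1.53.

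Between tissues, levels were compared within one kind of library; the differences come from a fit scaled over both tissues, and the CPM means keep their scaling within each tissue, so their ratio is not the fitted difference. In mRNA input the 5 genes were higher in liver than in kidney, where 60.6% of genes differed. Thrsp averaged 2465 ± 921 CPM in liver and 8.13 ± 2.27 CPM in kidney (SD, n = 6 and 5), a difference of 8.63 ± 0.35 (adjusted p = 1.09e-09). Srebf1 averaged 184 ± 152 CPM in liver and 13.4 ± 4.42 CPM in kidney, a difference of 3.75 ± 0.24 (adjusted p = 5.68e-08), although its HFD livers were at 44.6 to 53.6 CPM. Insig2 was higher by 1.80 ± 0.19, Nr1h3 by 1.75 ± 0.19 and Mlxipl by 1.12 ± 0.21 (adjusted p = 0.000512), and the Mlxipl ranges met, at 159 to 333 CPM in liver and 89.2 to 162 CPM in kidney.

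In total RNA, VsWAT exceeded GAS for Thrsp by 3.84 ± 0.29, for Nr1h3 by 2.21 ± 0.22 and for Srebf1 by 1.88 ± 0.32, where 66.6% of genes differed. The means were 367 ± 346 CPM of Thrsp in VsWAT and 17.8 ± 18.4 CPM in GAS, 15.7 ± 4.59 CPM of Nr1h3 in VsWAT and 2.22 ± 0.48 CPM in GAS, and 39.0 ± 25.6 CPM of Srebf1 in VsWAT and 6.44 ± 2.26 CPM in GAS (SD, n = 6 each). Insig2 was lower in VsWAT at -0.83 ± 0.15 (adjusted p = 0.000312), a call that ended with total-count scaling (-0.21, adjusted p = 0.386; the all-gene median shifts by 0.60) and without the libraries rich in Gm42418 (-0.49, adjusted p = 0.0636). Mlxipl was at -0.33 ± 0.22 (adjusted p = 0.198).

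Small RNA inputs of 4 tissues were scaled separately, so their levels are set side by side without a test. Srebf1 averaged 69.5 ± 29.8 CPM in VsWAT, 37.2 ± 17.3 in liver, 24.7 ± 8.42 in GAS and 19.8 ± 12.0 in plasma. Thrsp averaged 383 ± 354 CPM in VsWAT, 207 ± 98.7 in liver, 35.0 ± 29.7 in GAS and 20.2 ± 14.01 in plasma. This order mixes the diets: Thrsp averaged 83.9 ± 4.21 CPM in VsWAT and 136 ± 59.8 CPM in liver on HFD, against 683 ± 209.96 CPM in VsWAT and 279 ± 73.0 CPM in liver on LFD (SD, n = 3 each). Insig2 averaged 64.1 ± 27.3 CPM in liver, 29.1 ± 3.51 in VsWAT, 23.9 ± 6.74 in GAS and 2.84 ± 3.31 in plasma. Nr1h3 averaged 31.3 ± 8.07 CPM in VsWAT, 27.3 ± 7.07 in liver, 5.90 ± 2.9995 in GAS and 4.87 ± 1.22 in plasma, and Mlxipl 27.6 ± 14.4 in VsWAT, 26.9 ± 11.3 in liver, 20.2 ± 6.58 in GAS and 12.0 ± 13.4 in plasma (SD, n = 6, and 4 in plasma). The ranges of neighbours in these orders did not overlap for Nr1h3 and Thrsp between liver and GAS and for Insig2 between GAS and plasma, and the other neighbours overlapped.

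Across the 12 liver mRNA libraries, the genes whose log2 CPM followed each member most closely were listed by Pearson's r among 8896 genes, as a description of libraries that share diet and fraction. For Srebf1 they included Tmem201 (r = 0.985) and Vps9d1 (r = 0.983). For Nr1h3 they were Pgd, of the pentose phosphate pathway (r = 0.990), Cnp (r = 0.972) and Gaa (r = 0.964). For Insig2 they included Srsf3 (r = 0.979) and Mipol1 (r = 0.966), and they were for Mlxipl Pcyt2 (r = 0.964), Rnf213 (r = 0.946) and Nisch (r = 0.946), and for Thrsp Amacr (r = 0.932), Cys1 (r = 0.932) and Mcrip2 (r = 0.929).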

How the data were processed

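Each deposited file holds one library's raw counts by gene. The submitters' processing notes name STAR, HTSeq and mm10, with no versions, for what the authors did. Per the labels, tissue RNA was extracted with NucleoZOL, plasma RNA with Tri reagent BD, and sequencing was single-end after preparation with the CATS small RNA library kit; strandedness is not given in the sources used here. Summary lines of the total RNA files were left out of library sizes and tests: reads in no feature came to 19.6% to 32.3%, not unique 11.8% to 21.3% and ambiguous 0.292% to 0.550%. Symbols were matched for 55450 of 55746 Ensembl identifiers.

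Counts were tested with edgeR 4.0.16 in R 4.3.3 (TMM, filterByExpr with a minimum of 10 counts, robust quasi-likelihood F-test, 2-sided, Benjamini-Hochberg adjusted p under 0.05), and SE is the absolute log2 difference over the square root of F. The fits were also run on simulated data for some of the comparisons, with the same spread set for every gene. Those data held no closely agreeing or outlying libraries, so they cannot show how the tests hold where such libraries occur. There were 24 comparisons: diet within each library set, pull-down against input, tissues, and the differences of these. Alternatives were DESeq2 1.42.0, its size factors, total-count scaling, no filter, a spread from all 4 groups, closely agreeing libraries summed, the replicate number as a block and each library left out; runs without libraries that stood apart were chosen after seeing the data. Named genes are the 5 members and, of each further list, up to 4 with the smallest p, and the 3 genes most similar to each member; some genes that this rule names are not reported here. The members and lists were chosen with earlier results of these data known. Replicate numbers paired libraries, by correlated deviations over 0.1 in every pair of a comparison, in liver mRNA pull-down between diets (r = 0.149 to 0.155) and in GAS small RNA between pull-down and input (0.216 to 0.417). Kidney mRNA input between diets met this rule too (r = 0.347 to 0.428), on 2 pairs.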

Additional observations from a re-analysis of the deposited data

Results flagged for a closer look

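Some effects differed between sets of libraries when the difference itself was tested with edgeR's quasi-likelihood test. For Srebf1, the diet effect in liver mRNA pull-down minus that in input was 1.68 on the log2 scale (adjusted p = 0.00906), with all 3 HFD libraries below all 3 LFD libraries in both. The diet effect on Srebf1 in liver minus that in kidney was -3.25 (adjusted p = 0.00921). The enrichment in pull-down, liver minus kidney, was 1.43 for Insig2 (adjusted p = 4.4e-05) and -0.96 for Mlxipl (adjusted p = 0.00655). Neither Srebf1 call held with the closely agreeing liver inputs summed, and that between pull-down and input also ended with the replicate block. The Mlxipl call ended with those libraries summed, with total-count scaling and without the kidney inputs of high mitochondrial share.

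Plasma small RNA, which no comparison used, held reads of Srebf1, Mlxipl and Thrsp in each group, and of Insig2 in LFD pull-down, beyond the 3 counts taken as the limit of a count of 0; Nr1h3 had 1 to 3 counts a group. Srebf1 had 58 counts over both HFD pull-down libraries and 20 over both LFD pull-down libraries, 5 over the HFD inputs and 18 over the LFD inputs. Mlxipl had 44, 18, 5 and 7 counts in the same order of groups, and Thrsp 109, 116, 4 and 17. Insig2 had 37 counts in LFD pull-down. Single libraries held most of the pull-down counts: Srebf1 had 58 and 0 counts in the HFD libraries and 20 and 0 in the LFD libraries, and Insig2 had 0 and 37 in the LFD libraries. The summed hepatocyte markers ranged from 139 to 16944 CPM in HFD pull-down and from 994 to 4557 CPM in LFD pull-down. The erythroid markers were at 25521 to 26430 CPM in HFD and 12052 to 22377 CPM in LFD pull-down. The adipocyte markers were at 66.4 to 476 CPM in HFD and 243 to 648 CPM in LFD pull-down. The kidney tubule markers reached 371 CPM in HFD and 60.5 CPM in LFD pull-down. The part of these cell types in the member counts was not tested.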

How the results depend on the processing

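Over 1789 recomputed member effects, 1578 kept their direction and side of the threshold, 58 lost and 56 gained a call, 96 changed sign without a call, and 1 that passed changed sign: Nr1h3 in liver small RNA pull-down against input, at 0.30 with total-count scaling. The number of the 5 genes that passed is given where it changed by over 1.5 times, or to or from 0, and as a range with a library left out where that changed it; smaller changes are not all listed, and the causes were not tested. For diet in liver mRNA input (2 passed) it was 1 with the replicate block, 0 with closely agreeing libraries summed, 4 with a spread from all 4 groups and 1 to 5 with a library left out. In liver mRNA pull-down (4) it was 2 with total-count scaling, 2 with a spread from all 4 groups and 3 to 4 with a library left out. In kidney input (0) it was 1 without the inputs of high mitochondrial share. In liver small RNA pull-down (0) it was 1 with DESeq2, 2 with total-count scaling, 2 with no filter, 2 with the replicate block and 0 to 1 with a library left out. In VsWAT small RNA input (1) it was 2 with no filter and 2 without the inputs rich in Alb (1 HFD library left, assumed to vary like the others), and in VsWAT small RNA pull-down (1) 0 to 1 with a library left out. In GAS small RNA input (0) it was 1 with DESeq2, 1 with no filter and 0 to 1 with a library left out. In VsWAT total RNA (1) it was 3 with DESeq2, 2 with no filter, 2 without the libraries rich in Gm42418 (1 LFD library left, assumed likewise) and 0 to 1 with a library left out, and in GAS total RNA (1) 0 with no filter and 0 to 1 with a library left out. For pull-down against input, leaving out a library gave 3 to 4 in liver mRNA (3), 3 to 4 in kidney (4), 1 to 2 in liver small RNA (2) and 1 to 2 in GAS (1); total-count scaling gave 4 in liver small RNA and 2 in GAS, and no filter 2 in GAS. The interaction in liver (1) gave 0 with the replicate block, 0 with libraries summed and 1 to 2 with a library left out, and that in kidney (0) 0 to 1. The diet difference of liver and kidney (1) gave 2 with DESeq2, 2 with no filter, 0 with libraries summed, 2 without high mitochondrial share and 1 to 2 with a library left out. That of VsWAT and GAS (0) gave 1 with DESeq2 and 1 with no filter, and VsWAT against GAS (4) gave 4 to 5 with a library left out, and 3 with total-count scaling or without the libraries rich in Gm42418. The enrichment difference (2) gave 1 with total-count scaling, 1 with libraries summed, 1 without high mitochondrial share and 1 to 2 with a library left out. Where numbers only are shared the block result is not read as a weaker effect. Where they pair the libraries, the block changed no member call. Those sets were liver mRNA pull-down and kidney mRNA input between diets, and GAS small RNA between pull-down and input. In the liver interaction the block left Srebf1 at 1.68 (adjusted p = 0.116). The number of all genes passing in liver mRNA input was 1328, against 28 with the block, 0 with libraries summed and 48 to 5582 with a library left out, and in the interaction 365, against 0 with the block, 0 with libraries summed and 14 to 3054. Of 140 group means of the members, 58 moved by over 1 SD with CPM of all assigned counts in place of TMM scaling. Counts under about 10 a library, as for Nr1h3 in GAS, limit what small RNA and plasma can show.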
